A study of Mus musculus with 8 samples.

Results

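The genes described here are the protein-coding genes of cytosolic ribosomal proteins in mouse liver, 86 of the 21951 protein-coding genes of the GENCODE M21 annotation of mm10. They were chosen by symbol alone (Rpl or Rps followed by a digit, Rplp0 to Rplp2 and Rpsa, leaving out the S6 kinases and pseudogenes), a rule that uses no measured value but was set with earlier results of these data known. Of the 86 genes, 52 belong to the large subunit by name and 34 to the small one. The symbol rule also took in 9 genes outside the core set of 77, which are the duplicate or tissue-specific copies Rpl3l, Rpl7l1, Rpl10l, Rpl22l1, Rpl36al, Rpl39l, Rps27l and Rps27rt, and Rps19bp1, whose product binds Rps19 and is no ribosomal protein. ATAC-seq, in which a transposase inserts adapters into open chromatin, was performed on 50000 nuclei per library from frozen adult C57BL/6 liver (C57BL/6J in the study's methods), with 4 control and 4 Alb-D2KO libraries. In Alb-D2KO mice, floxed Dio2, the gene of the type 2 deiodinase that makes T3 from T4, is removed by Cre driven by the albumin promoter; the deletion is thus directed to hepatocytes, whereas the nuclei came from whole liver. The control libraries carry the word cre in their titles, and the labels give no further genotype and no age beyond adult. The data are 2 lists of open regions called on pooled libraries, one with 8031 regions called in the controls that met no region of the Alb-D2KO libraries (reduced chromatin accessibility areas, RCAs, called lost regions below) and one with 250 regions called in Alb-D2KO liver alone. No region has a value per animal, so nothing below carries a replicate error; intervals are 95% Wilson intervals that cover counting error over genes or regions alone, and read depth per library is unknown.

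At Dio2 itself both lists were empty within 5 kb (0 regions in each), so they do not check the deletion. Lost regions lay within 5 kb of 6 of 8 hepatocyte markers (Alb, Ttr, Apoa1, Apob, Cebpa and Hnf4a, but not Cps1 or Cyp2e1) and of 1 of 5 markers of other liver cells (Stab2, of sinusoidal endothelium, but not Clec4f, Dcn, Krt19 or Ptprc), where 21.1% of all protein-coding genes had one. The lists hold only regions that differ between the genotypes, so a marker without a region says nothing about its cell type.

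Ribosomal proteins clothe the ribosomal RNA of both subunits and are made in near-equal amounts by every growing cell. Their genes are short, have promoters rich in C and G that are open in most tissues, and usually start transcription at a C within a run of pyrimidines, the terminal oligopyrimidine (TOP) tract through which mTOR signalling controls translation of their mRNAs. Many of their introns carry small nucleolar RNAs, and their mRNAs have given rise to large numbers of processed pseudogenes. Mutations of several of them, RPS19 first among them, cause Diamond-Blackfan anaemia in humans.

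The promoters of 5 of these genes are printed to show what the lost regions did and did not reach. Rps26, Rpl10a and Rpl36a are the members with a lost region at one of their own start sites; Rps6, with no lost region within 5 kb, and Rps19, with one past its end, had none there and serve as examples. Each runs from 250 bases before the RefSeq start site to 30 bases from it on, 5′ to 3′, taken from RefSeq sequence of the GRCm38.p6 (mm10) build. Capitals mark GGGCGG (the box bound by SP and KLF factors), CCGGAAG (the ETS core), AAGATGGC (YY1), CACGTG (the E-box), the TATA box letters TATAAA, a palindrome of 10 bases that is found in some promoters without a TATA box (the run in capitals at the start of Rps19), each on either strand, and a run of at least 8 pyrimidines over the start.
Rps26 (chr10:128626477-128626756, minus strand): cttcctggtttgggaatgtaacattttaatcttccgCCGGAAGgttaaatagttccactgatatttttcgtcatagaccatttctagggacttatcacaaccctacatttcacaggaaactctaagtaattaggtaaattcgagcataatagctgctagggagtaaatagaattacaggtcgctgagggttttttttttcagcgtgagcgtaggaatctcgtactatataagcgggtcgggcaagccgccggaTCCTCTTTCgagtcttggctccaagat
Rpl10a (chr17:28328221-28328500, plus strand): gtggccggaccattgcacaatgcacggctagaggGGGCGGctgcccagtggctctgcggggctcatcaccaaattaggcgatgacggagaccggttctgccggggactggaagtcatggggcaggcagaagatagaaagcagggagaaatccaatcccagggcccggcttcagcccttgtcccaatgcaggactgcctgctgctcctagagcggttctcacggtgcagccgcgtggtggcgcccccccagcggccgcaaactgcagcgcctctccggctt
Rpl36a (chrX:134585404-134585683, plus strand): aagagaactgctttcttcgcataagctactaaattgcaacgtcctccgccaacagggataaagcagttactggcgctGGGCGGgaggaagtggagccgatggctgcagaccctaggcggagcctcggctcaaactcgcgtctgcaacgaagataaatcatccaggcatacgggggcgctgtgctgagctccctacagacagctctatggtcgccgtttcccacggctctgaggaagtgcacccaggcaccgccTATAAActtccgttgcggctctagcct
Rps6 (chr4:86857338-86857617, minus strand): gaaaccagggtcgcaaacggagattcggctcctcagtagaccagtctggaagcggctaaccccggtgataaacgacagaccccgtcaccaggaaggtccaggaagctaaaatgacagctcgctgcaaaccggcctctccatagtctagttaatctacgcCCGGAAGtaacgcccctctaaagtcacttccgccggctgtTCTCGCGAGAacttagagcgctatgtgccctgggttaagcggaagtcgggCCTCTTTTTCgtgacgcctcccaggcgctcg
Rps19 (chr7:24884342-24884621, plus strand): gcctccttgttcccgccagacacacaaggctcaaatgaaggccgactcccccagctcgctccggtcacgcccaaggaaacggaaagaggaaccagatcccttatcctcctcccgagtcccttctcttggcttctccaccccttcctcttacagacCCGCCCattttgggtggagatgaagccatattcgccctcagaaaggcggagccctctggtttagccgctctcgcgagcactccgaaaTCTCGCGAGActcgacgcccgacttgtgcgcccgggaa
The lost region at Rps26 covered 101 of these 280 bases, and the one at Rpl36a covered 208. The one at Rpl10a covered 0 of them, since it lay farther into the gene. No motif was in all 3 of these promoters. Rps26 had an ETS core far upstream and a pyrimidine run just past its start, Rpl10a an SP/KLF box, and Rpl36a an SP/KLF box and, downstream of its start, TATAAA. Rps6 had an ETS core, the palindrome and a pyrimidine run at its start, and Rps19 an SP/KLF box and the palindrome, which was in only 5 of the 66 members with a promoter sequence.

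Few ribosomal protein genes had a lost region, and their share was close to that of other genes of their size. A lost region overlapped or lay within 5 kb of 14 of the 86 genes, or 16.3% (95% Wilson interval 9.95 to 25.5), against 21.1% of all protein-coding genes. Ribosomal protein genes are short, with a median gene body of 3328.5 bp against 17568 bp for other protein-coding genes, and a longer gene can meet more regions. When the other protein-coding genes were weighted to the members' lengths, in bins of 1 doubling, 14.1% of them had a lost region, which lies inside the members' interval. Members of 2048 to 4095 bp, the most common size, had a lost region in 6 of 44 cases (13.6%), and the 1668 other genes of that size in 14.4%. For 4096 to 8191 bp, the counts were 3 of 21 members (14.3%) and 13.9% of the others. Of the 7 members of 8192 to 16383 bp, 2 had a lost region (28.6%; others 18.8%), and from 16384 bp on both of the 2 members did, against 22.3% of the others. The latter were Rpl11 and Rps14, whose annotated bodies are much longer in GENCODE than in RefSeq. The direction of the small difference depended on what was held constant: with the CpG count of the promoter held constant beside length, 20.5% of the other genes had a lost region, and 11 of the 66 members with a promoter sequence did (16.7%).

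The plot of shares by distance shows the same at each distance tried. Within 1 kb of the gene body, 9 members had a lost region (10.5%, interval 5.60 to 18.7) against 8.80% of the length-weighted others, and within 10 kb 19 members did (22.1%, interval 14.6 to 31.9) against 18.9%. When only overlap with the gene body counted, the members came to 6, or 6.98%, the weighted others to 7.09%, and all protein-coding genes to 15.7%.

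**Figure D1:**
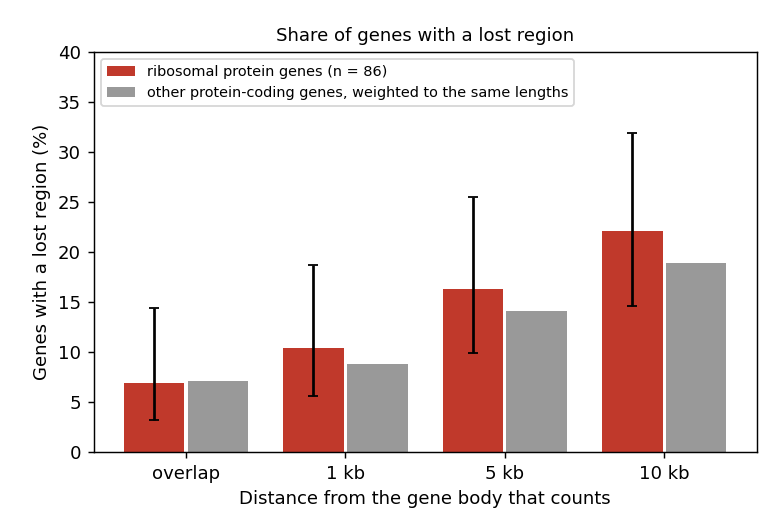
Percent of genes with a lost region (vertical axis) by how far from the gene body a region may lie (horizontal axis), for the 86 ribosomal protein genes (red, bars of error are 95% Wilson intervals) and for other protein-coding genes weighted to the same lengths (grey). At each of the distances the grey bar lies within the interval of the red one.

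Lost regions at the members' own start sites were few, with a share close to that of other genes of similar length. A lost region lay within 200 bp of an annotated start site of the same gene in 3 of 86 members, or 3.49% (interval 1.19 to 9.76), against 5.94% of all protein-coding genes and 4.05% of others weighted to the members' lengths. The start-site share of other genes was not computed with promoter CpG count held constant. The remaining 83 members had no lost region at any annotated start site. The subunits had like shares for any lost region, 9 of 52 large-subunit genes (17.3%, interval 9.38 to 29.7) and 5 of 34 small-subunit genes (14.7%, interval 6.45 to 30.1). Among core members the counts were 7 of 46 large-subunit and 5 of 31 small-subunit genes. No member had a region open only in Alb-D2KO liver within 5 kb, 0 of 86 genes with a Wilson upper bound of 4.28%, where 0.815% of all protein-coding genes had one. That share was 0.416% of others weighted to the members' lengths.

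The 3 regions at members' own start sites differed in place and strength. The strongest was at Rps26, a protein of the small subunit near the channel through which mRNA leaves (chromosome 10 from 128624534 to 128626747, minus strand). It ran from 128626259 to 128626577, 170 to 488 bp into the annotated gene, over 5′ UTR and coding exon, with an area under the curve of −log10 p (area) of 365 and a summit q of 4.16e-05. This area was larger than or equal to that of 78.2% of all lost regions. Since RefSeq places the start of Rps26 inside this region, the region covers that start site even though it lies downstream of the GENCODE one. At Rpl36a, a large-subunit protein whose gene is on chromosome X (from 134585654 to 134588062, plus strand), the region from 134585476 to 134585753 reached from -178 to 99 bp relative to the start, and took in 5′ UTR and coding exon, with an area of 277 and a q of 0.000640. The Rpl10a gene encodes the protein of the L1 stalk, which handles the tRNA that leaves the ribosome (chromosome 17 from 28328471 to 28331033, plus strand). Its region, from 28328757 to 28329356, began 286 bp inside the gene and lay 160 bp from the nearest start of a protein-coding transcript, over coding exons; the annotated starts inside it were those of noncoding transcripts of the gene. It was 600 bp wide but weak, with an area of 235, a q of 0.00392 and a mean of 0.391 area units per bp, the lowest of the 16 regions near members. An area minimum of 300 would leave Rps26 alone of the 3.

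**Figure D2:**
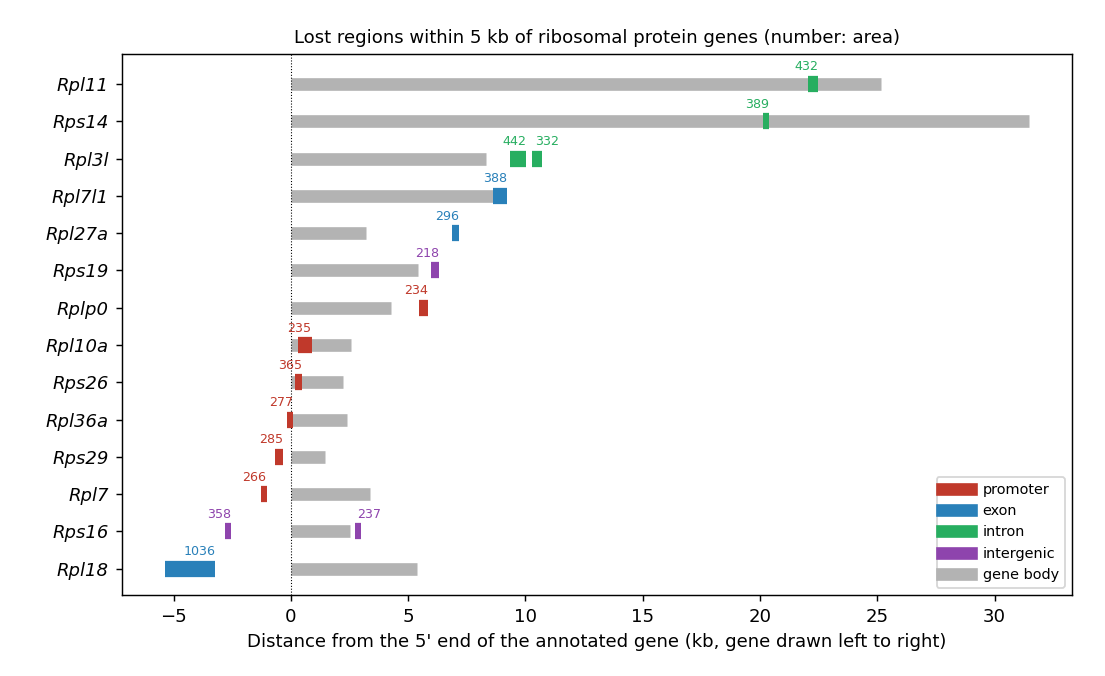
Position of the 16 lost regions near 14 ribosomal protein genes, in kb from the 5′ end of each annotated gene drawn left to right (grey, gene body); colours give the class of the region by any annotated gene and the number beside each is its area. Regions touch the 5′ end of the gene at Rpl36a and lie just inside it at Rps26 and Rpl10a, while 10 of the 16 regions lie outside the gene body.

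Many of the other regions lay in or next to a neighbouring gene. Of the 16 lost regions, 6 overlapped the body of a member and 10 lay outside it, and for 9 the nearest annotated start site was that of another gene. These 9 include the region downstream of Rps16, for which that gene was AF357399, whose start lies inside the Rps16 gene body. Among others weighted to the members' lengths, 14.1% had a lost region within 5 kb and 7.09% had one that overlapped the body. The members' shares were 16.3% and 6.98%. The nearest start was not counted for regions of other genes. Upstream of Rpl7, a large-subunit gene on chromosome 1 (from 16101295 to 16104662, minus strand), the region from 16105697 to 16105926 lay 1035 bp away at the start and 5′ UTR of Rdh10, a retinol dehydrogenase (area 266). Downstream of Rplp0, the base of the stalk that recruits elongation factors and a common reference gene in expression studies (chromosome 5 from 115559467 to 115563727, plus strand), the region from 115564951 to 115565298 covered the start, 5′ UTR and coding exon of Gcn1l1, an activator of the kinase that senses amino acid shortage (area 234). Rps29, a small zinc-binding protein of the small subunit (chromosome 12 from 69157722 to 69159186, minus strand), had its region 327 bp upstream, from 69159513 to 69159866, over Rn7s1, a gene of the 7SL RNA of the signal recognition particle, and the short noncoding gene Gm47295 (area 285). These 3 regions count as promoter regions through the start of the neighbour.

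The largest region near any member lay 3229 bp upstream of Rpl18, a large-subunit gene on chromosome 7 (from 45715457 to 45720836, plus strand). It spanned 2146 bp, from 45710083 to 45712228, over the 3′ ends of Dbp, a transcription factor with a strong daily rhythm in liver, and Sphk2, a sphingosine kinase, including coding exons of Sphk2. With an area of 1036 it ranked 11 among the 8031 lost regions, although per base its signal was only 0.483 and its summit q 0.00183. The region assigned to Rpl27a (chromosome 7 from 109526024 to 109526301, area 296) was in a coding exon of St5, 3657 bp beyond the end of Rpl27a. Both regions of Rpl3l, the form of Rpl3 made in striated muscle, were in introns of Msrb1, a methionine sulfoxide reductase, with areas of 442 and 332. They lay 1032 and 1976 bp beyond Rpl3l, on chromosome 17 from 24737175 to 24737849 and from 24738119 to 24738524. Rpl7l1, a relative of Rpl7 with a role in ribosome assembly, had its region over the 3′ UTR (chromosome 17 from 46773454 to 46774053, area 388), 8584 bp from its nearest start.

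Rps16, a small-subunit gene (chromosome 7 from 28350652 to 28353155, plus strand), was flanked by lost regions on both sides. The upstream one, from 28347826 to 28348094, lay 2558 bp before the gene with an area of 358 and a q of 0.000133, and the downstream one, from 28353370 to 28353658, lay 215 bp beyond it with an area of 237 and a q of 0.00156. Both were intergenic. Rps16 and Rpl3l were the 2 members with more than 1 lost region, or 2.33% of the 86, against 6.83% of all protein-coding genes and 3.45% of others weighted to the members' lengths, and 0 members had 3 or more. The region near Rps19 (chromosome 7 from 24884371 to 24889806, plus strand) was intergenic and 525 bp past the end of the gene, from 24890331 to 24890706, and had the smallest area near any member, 218, with 14.8% of all lost regions below it. The smallest area of any lost region was 200, so this one lay near the floor of the list.

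The lost regions of Rpl11 and Rps14 lay in introns of their long annotated forms. Rpl11, which with Rpl5 binds Mdm2 and so links ribosome assembly to p53, is annotated over 25164 bp of chromosome 4 (from 136028265 to 136053428, minus strand); its region, from 136030944 to 136031384, with an area of 432, lay 22044 bp from the 5′ end, 21706 bp from the nearest start of a protein-coding transcript and 2146 bp from that of a noncoding one. Rps14, whose human counterpart lies in the interval lost in the 5q- syndrome, is annotated over 31449 bp of chromosome 18 (from 60747098 to 60778546, plus strand), and its region, from 60767244 to 60767473, had an area of 389 and lay 7123 bp from the nearest start. In RefSeq, the 2 genes span 4040 and 3951 bp. With RefSeq gene bodies, an alternative chosen after seeing the data, both lost their region, which left 12 of 86 members (14.0%) with one against 14.8% of the length-weighted others. Of the other genes whose values were to be given in any case, Rpl5, Rps6 (the substrate of the S6 kinases), Rpl22 (a large-subunit protein needed by developing T cells) and Rpsa (also known as the laminin receptor) had no lost region within 5 kb.

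By class, the 16 regions were 6 promoter (37.5%, interval 18.5 to 61.4), 3 exon, 4 intron and 3 intergenic regions. Over all lost regions the promoter class held 19.4%, and over the lost regions within 5 kb of other protein-coding genes 24.3%. The members' small count leaves both inside its interval. The 16 areas ran from 218 to 1036 with a median of 314 (quartiles 259 and 388), where all lost regions had a median of 278 (quartiles 232 and 351). Within classes the order was not the same. The 6 promoter regions had a median area of 271, below the 304 of all lost promoter regions, and 5 of the 6 had an area under 300, against 48.8% of all lost promoter regions. The 4 intronic regions had areas from 332 to 442, against a median of 271 for all lost intronic regions. They were those beside Rpl3l, which lie in introns of Msrb1, and those of Rpl11 and Rps14, which are not within 5 kb of the RefSeq gene bodies.

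**Figure D3:**
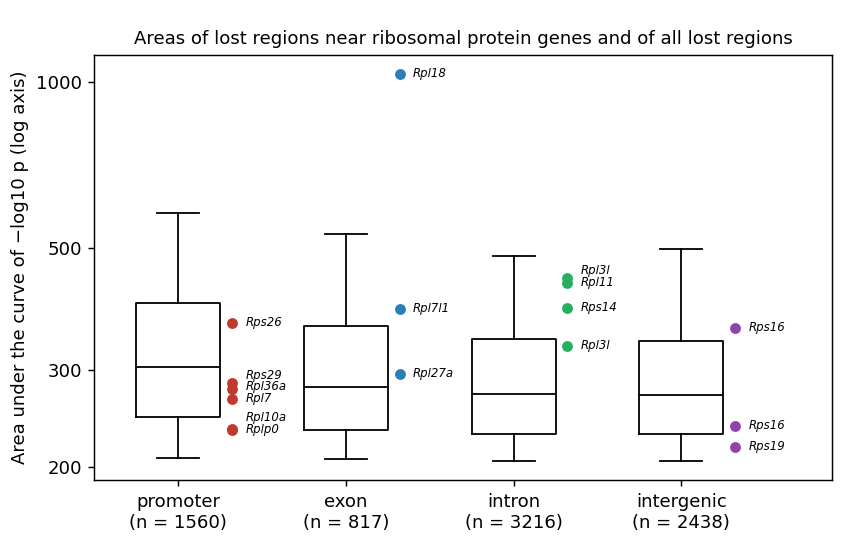
Area under the curve of −log10 p (vertical log axis) of the lost regions near ribosomal protein genes (points, with the gene's name) beside all lost regions of the same class (box, quartiles and median; whiskers, 5th and 95th percentiles). The promoter points lie from 234 to 365, around and below the median of the box, and the region near Rpl18 stands above the whisker at 1036.

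A member without a lost region may have been open in both genotypes or called open in neither, since regions shared by both genotypes are in no list. The caller numbers the control regions along the genome up to 22367, so the numbers missing between 2 listed regions count control regions in that stretch that are not in the list, called kept here. This reads the numbers as 1 call per genotype, which the sources do not state outright. For each of the 86 members, the stretch around the gene with 5 kb on either side held at least 1 kept control region (median 5, highest 19). Among 21852 other protein-coding genes, the median was also 5, and 925 (4.23%) had none in theirs. With 86 members, these counts do not show that members differ from other genes. The number of kept regions is an upper limit for the gene, because the listed regions on either side of a start site were 283 kb apart at the median. When the stretch was taken around the 5′ end of the annotated gene alone, it was shortest at Rps16. The regions that flank it there carried the numbers 8574 and 8576, while the wider stretch of Rps16 held 9 kept regions. Exactly 1 control region was therefore kept within the 5275 bp that hold the whole gene. At Rpl5, Rpl7, Rpl37 and Rps27rt the whole gene likewise lay in a stretch with at most 1 kept region. At Rps26 and Rps14 the GENCODE 5′ end lay in such a stretch, but the gene ran past it. The RefSeq start of Rps26 lies in the lost region that bounds its stretch.

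Much of the coding sequence of these genes has near-identical copies in the genome. In the members, a median of 100% of the coding bases (quartiles 90.3 and 100) had a copy of at least 95% identity elsewhere on the chromosomes, in alignments of 50 bp or more. For the 78 mitochondrial ribosomal protein genes the median was 0% (quartiles 0 and 45.0), and 26 of them had some such copy. The promoters had few such copies, with none in 54 of 66 members. Of the 16 lost regions, those at Rpl10a, Rps29, Rpl36a and Rpl7l1 had 26.8%, 23.7%, 19.4% and 18.7% of their bases in such copies, and the other regions none; no region had a copy over 80% of its length. The authors dropped alignments with a mapping quality under 30, and the part of this filter in the counts was not tested.

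The promoters of ribosomal protein genes had sequence features that the choice by symbol did not use. RefSeq promoters of 300 bases were matched for 66 members. An ETS core was in 25 of them (37.9%) and in 12.3% of all 16515 protein-coding promoters, and a TOP-like run of at least 8 pyrimidines over the start in 20 (30.3%) against 9.55%. That run was sought only at the annotated RefSeq start, and shorter runs were not counted. The count is thus no measure of how many genes have a TOP tract. The median run there was 5 bases in members and 3 over all promoters. The CpG palindrome was in 5 members (7.58%) and in 0.733% of all promoters, and the SP/KLF box in 40 (60.6%) against 48.3%. YY1 matches were in 7.58% of members against 3.26%, E-boxes in 7.58% against 8.07% and TATAAA, wherever it lay in the 300 bases, in 9.09% against 12.8%. Among the 11 matched members with a lost region, 3 had an ETS core, 3 a TOP-like run and 8 an SP/KLF box, and among the 55 without one the counts were 22, 17 and 32. TATAAA was in 2 of the 11 and 4 of the 55, the E-box in 0 and 5, YY1 in 1 and 4, and the palindrome in 1 and 4. With 11 genes on one side, these counts do not show whether the groups differ. CpG counts per promoter had a median of 21 in both groups and 14 over all promoters. A motif match is a description of letters and no evidence of binding.

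**Figure D4:**
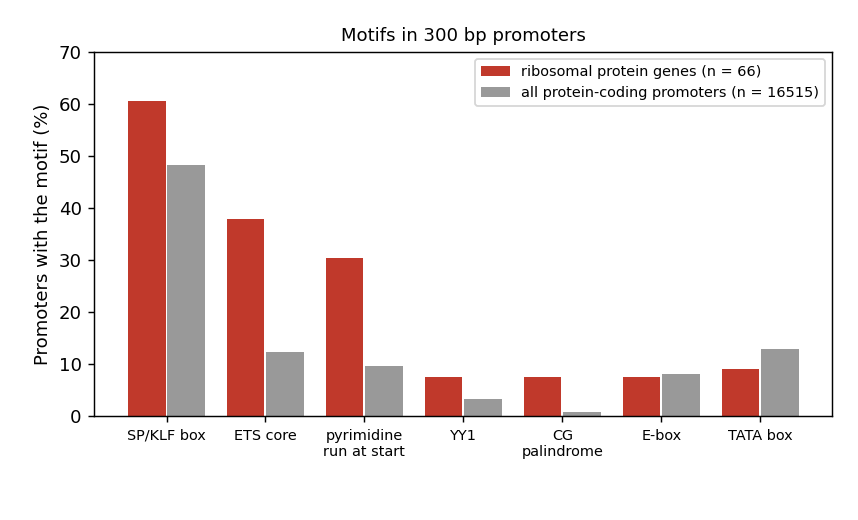
Percent of 300 bp promoters (vertical axis) that hold each motif on either strand, or a pyrimidine run over the start, for 66 ribosomal protein genes (red) and all 16515 protein-coding promoters (grey). The ETS core (37.9% against 12.3%) and the pyrimidine run (30.3% against 9.55%) differ most in percentage points.

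Other genes of the translation machinery and growth regulators were listed by function with earlier results of these data known. Over all protein-coding genes, 21.1% had a lost region and 5.94% had one at an own start site, shares that are not weighted for length. Of the 78 mitochondrial ribosomal protein genes, 14 had a lost region (17.9%), and 2 had it at their own start site, Mrpl33 (area 304) and Mrps10 (area 216). Translation factors had one in 7 of 42 cases (16.7%, interval 8.32 to 30.6), with start-site regions at Eif4e, the cap-binding protein (area 390), its scaffold Eif4g1 (area 247) and Eif5 (area 379). Genes of ribosome assembly and RNA polymerase I had one in 8 of 47 cases, at the start site in Ubtf, which opens ribosomal DNA for polymerase I (area 321), and Nmd3, the export adaptor of the large subunit (area 370). Among 29 growth regulators of the mTOR, Myc and eIF2 kinase pathways, 8 had a lost region (27.6%, interval 14.7 to 45.7) and only Akt1 had it at a start site (area 240). The Wilson intervals of these 4 lists include 21.1%, and those of their start-site shares include 5.94%. The Alb-D2KO-only list placed no region within 5 kb of any gene in the 4 lists, where its background is 0.815%.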

How the data were processed

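ATAC-seq was performed by the authors on 4 control and 4 Alb-D2KO libraries. Per the labels and the study's methods, adapters were removed with NGmerge, reads were aligned to mm10 with BWA 0.7.17, duplicates, split or chimeric reads and alignments with a mapping quality below 30 were discarded, and regions were called with Genrich 0.6 at a q threshold of 0.05 on samples grouped together; whether this was 1 call per genotype is not stated outright and was read from the region numbers, which run separately in each list. Regions of one genotype that overlapped none of the other were deposited. In the deposited lists the signal is the area under the curve of −log10 p over a region, the deposited −log10 q is that of its summit (a −log10 p column was not used), and the deposited score is the area per bp times 1000 with a ceiling of 1000; the score entered no result.

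Regions were assigned to every GENCODE M21 gene body within 5 kb and to the first class met of promoter (200 bp around any annotated start), exon, intron and intergenic. The study names another GENCODE release. Copies were sought with blastn 2.17.0 (megablast); intervals came from scipy 1.17.1. Assignment was tested on regions placed at known positions. No p-value is given, because pooled lists hold no replicates and genes are not replicates. The members and gene lists were chosen with earlier results of these data known. Genes named with values were members with a start-site region, the 5 with the largest areas, those with 3 or more regions or an Alb-D2KO-only region, 8 fixed genes, and start-site genes of the other lists; the other members with a lost region were added after their values were seen. Alternatives covered distance, area, q, width, promoter window, start sites, gene lists, region sharing, length weighting and gene bodies. One small gene list is not reported here.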

Additional observations from a re-analysis of the deposited data

How the results depend on the processing

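The number of members with a lost region went from 14 to 6 with overlap only and to 9 within 1 kb. It was 7 with an area of at least 300, and also 7 when a region went only to the gene with the nearest start site. The share of length-weighted other genes moved alongside in the first 3 of these, to 7.09%, 8.80% and 7.63%. For the nearest-start rule that share was not computed. Members with a region at their own start went from 3 to 8 with a window of 3000 bp, where 9.52% of weighted others had one, and to 1 with an area of at least 300. The median area became 389 with that minimum. A promoter window of 3000 bp turned the classes to 14 promoter, 1 exon, 1 intron and 0 intergenic regions. No member had an Alb-D2KO-only region at any distance tried, up to 10 kb. The other alternatives stayed within 1.5 times the count, or within the spread of the value. No paired analysis was possible because the lists hold pooled calls without a value per library, and for the same reason no library could be left out. Depth per library is unknown, so an absent region is one that was not called, and 14 genes are too few to separate a share from one a few points away.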

Other observations

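Small nucleolar RNAs lay within the gene body of 30 of the 86 ribosomal protein genes. They were in 2 of the 14 members with a lost region (14.3%) and in 28 of the 72 without one (38.9%), a description over few genes, with no test. The members with a lost region lay on 9 of the 19 chromosomes that hold members.

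The annotation holds 294 ribosomal protein pseudogenes with ps symbols. A lost region overlapped 0 of them, with a Wilson upper bound of 1.29%, and 39 of 12838 other pseudogenes annotated as processed or unprocessed (0.304%). Any ribosomal protein pseudogene without a ps symbol stays among these others. Within 5 kb, 15 of the 294 (5.10%, interval 3.12 to 8.25) had a lost region, against 2.53% of the other pseudogenes. The part of the mapping quality filter in these counts was not tested.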
